A study of Mus musculus with 3 samples.

Results

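CD4 T cells, the helper and regulatory arm of the T lymphocytes, were examined in the dorsal skin of C3H/HeN mice with and without alopecia areata (AA), a hair loss disease in which T cells gather around the hair follicle. A barcode was taken as a CD4 T cell when it held a unique molecular identifier (UMI, a tag that counts each captured mRNA molecule once) for at least 2 of *Cd3d*, *Cd3e*, *Cd3g*, *Trac* and *Trbc2*, at least 1 UMI of *Cd4*, none of *Trdc*, *Cd8a* or *Cd8b1*, and keratin (*Krt*) UMIs under 1% of its total. This rule found 84 of 26847 barcodes, after barcodes with over 10% mitochondrial UMIs or under 200 genes had been left out. All mice were female and 25 weeks old, and whole-skin cells of 7 to 8 mice per group were pooled into 1 droplet library. The Neg library came from the negative (vehicle) control, the AA library from mice in which AA had been induced by transfer of lymph node cells of affected mice, and the AA+Ab library from the same model given an antibody that neutralizes the chemokine CXCL12. The dose and schedule of the antibody were not given in the sources used here. With 1 library per group, differences between groups have no replicate, no p-value was computed for them, and every interval below is a 95% interval of counting error only.

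A CD4 T cell reads peptides on class II major histocompatibility molecules and directs other cells through cytokines. Naive and recirculating cells carry the homing receptor CCR7 and the transcription factors LEF1 and TCF-1. After activation, helper cells may take a type 1 programme (T-bet, interferon gamma), a type 2 programme (GATA3, IL-4, IL-5, IL-13) or a type 17 programme (IL-17), whereas regulatory T cells (Treg) are defined by FOXP3. In AA, interferon gamma acts on cells of the follicle through JAK-STAT signalling, and Treg cells are a normal resident of the skin around hair follicles.

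The 84 cells were spread over the libraries as 14 in Neg, 26 in AA and 44 in AA+Ab, and they held 111885, 161315 and 279111 UMIs. The libraries as a whole held 6582, 10433 and 9832 barcodes that passed the filters and 121289374 to 141998364 UMIs. The median CD4 T cell held 5902, 5183 and 4551 UMIs in Neg, AA and AA+Ab. A few barcodes were far deeper than the rest. The deepest in Neg held 34736 UMIs, 31% of all CD4 UMIs of that library, the deepest in AA held 17606, and 5 in AA+Ab held between 12931 and 23650. A comparison with simulated doublets (droplets with more than 1 cell) scored 1, 1 and 3 of the CD4 barcodes as doublets, and ratios of list sums that moved by more than 1.5 times without them are given both ways. The libraries shared 17 to 28 barcode sequences pairwise, and 1 CD4 barcode of AA+Ab also occurred in AA, not as a CD4 T cell.

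T cell identity was checked against receptor signalling genes that the rule did not use, in cells already chosen by other T cell genes. This list cannot tell CD4 from CD8 T cells, since 0 of its 18 genes were higher and 2 lower in CD4 T cells in the test below. All 18 of that list were detected in each library, and every one of the 84 cells held at least 7 of them. Markers of other skin cells were also present, in part from single barcodes. Of the 21 macrophage and dendritic cell genes, *Csf1r*, *Adgre1*, *C1qa*, *C1qb* and *C1qc* were at 0 in every library, and the summed level was 26.8, 1302 and 57.3 CPM (UMI counts scaled to the same total for the CD4 T cells of each library) in Neg, AA and AA+Ab. Of the 21 genes, 3, 10 and 4 were detected. In AA, 1 barcode of 10514 UMIs held all 10 of the genes detected there and 192 of their 210 UMIs. These include 115 of the 129 *Cd74* UMIs and 33 of the 35 *H2-Aa* UMIs. The 13 natural killer and innate lymphoid genes summed to 259, 1475 and 254 CPM, with a member in 6 of 14, 14 of 26 and 23 of 44 cells. They include *Il1rl1*, which type 2 helper cells share (23, 36 and 68 UMIs). Of this list *Ncr1*, *Klrb1c*, *Klre1* and *Eomes* were at 0 throughout. The deepest AA barcode held 179 of the 238 UMIs of the list in AA, among them 156 of the 157 *Gzmc* UMIs and 12 of *Tyrobp*. *Tyrobp* was found in 2 AA cells and in no cell of Neg or AA+Ab. The other AA cell was the barcode with most *Cd74*, also with 12 UMIs. The 5 keratinocyte genes *Perp*, *Sfn*, *Lgals7*, *Dsp* and *Fabp5*, which the rule did not use, summed to 1645, 874 and 2988 CPM, which is 12.9%, 6.07% and 21.7% of their level in keratin-rich barcodes of the same library (at least 1% *Krt* UMIs and no T cell, *Cd4*, *Cd8a*, *Cd8b1*, *Trdc* or *Ptprc* UMI). In Neg, 1 barcode held 138 of the 192 UMIs of the 9 keratinocyte genes outside the rule. In AA+Ab, *Fabp5* gave 1705 of the 2988 CPM, against 484 CPM of *Fabp5* in CD8 T cells of that library. Estimates of keratinocyte RNA below rest on these sums, so they are rough. The gamma-delta T cell list had 0, 2 and 6 UMIs, the B and plasma cell list 1, 8 and 12, the mast cell and granulocyte list 7, 0 and 7, and the list of fibroblast, endothelial, muscle and melanocyte genes 156, 44 and 103, of which *Dcn* in 2 Neg cells gave 126. The part of these cells in the results below was not tested.

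CD4 T cells made up 0.213% (0.116 to 0.357) of the kept barcodes in Neg, 0.249% (0.163 to 0.365) in AA and 0.448% (0.325 to 0.600) in AA+Ab. The share in AA was 1.17 times that in Neg (0.590 to 2.43), so that no difference was detectable with these cell numbers. The share in AA+Ab was 1.80 times that in AA (1.08 to 3.04) and 2.10 times that in Neg (1.13 to 4.16). CD8 T cells, taken by the same rule with the coreceptors exchanged, numbered 11, 182 and 57. Their share in AA was 10.4 times that in Neg (5.70 to 21.3), and that in AA+Ab was 0.332 times that in AA (0.242 to 0.450). CD4 T cells were 56% (34.9 to 75.6) of the CD4 and CD8 T cells in Neg, 12.5% (8.33 to 17.8) in AA and 43.6% (33.7 to 53.8) in AA+Ab. The intervals of Neg and AA, and those of AA and AA+Ab, did not overlap, whereas those of Neg and AA+Ab did. A gamma-delta T cell, a skin lymphocyte with a different receptor (*Trdc* present), was found in 149, 106 and 206 barcodes.

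**Figure D1:**
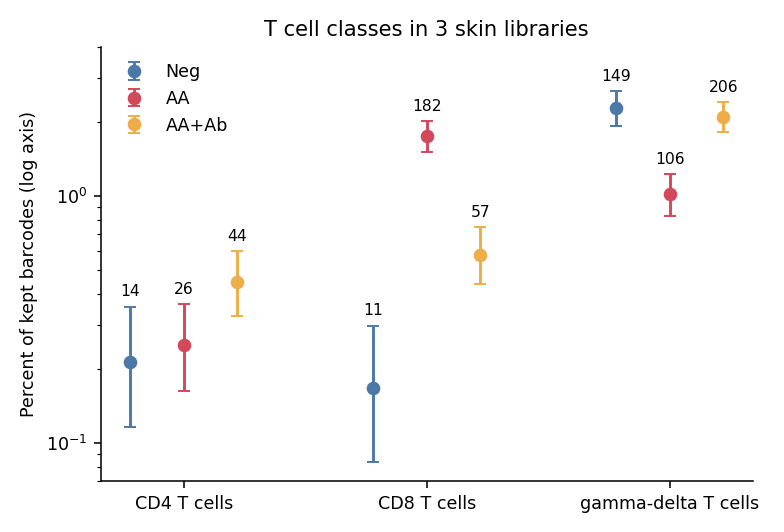
Percent of kept barcodes (log axis) that were CD4, CD8 or gamma-delta T cells in the Neg, AA and AA+Ab libraries, with exact 95% intervals of counting error and the number of cells above each point. CD4 T cells numbered 14, 26 and 44, and CD8 T cells 11, 182 and 57.

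The genes that chose the cells are given as a description only. *Cd4* had 1 UMI in 10 of 14, 16 of 26 and 30 of 44 cells, and at most 6 in any cell. All 5 T cell genes were detected in 11, 13 and 24 cells. Just inside the rule, 1, 2 and 0 cells had exactly 2 of the 5 genes, and just outside it 1, 1 and 4 barcodes had *Cd4* and only 1 of them. A further 2, 1 and 0 barcodes were left out because keratin UMIs were between 1% and 2%. A larger class, 50, 77 and 78 barcodes with T cell genes but no UMI of *Cd4*, *Cd8a*, *Cd8b1* or *Trdc* was left unassigned, so the cell numbers above count only cells in which a *Cd4* mRNA was captured.

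Naive and recirculating genes were found in fewer CD4 T cells of AA than of Neg. At least 2 of *Ccr7*, *Lef1* and *Tcf7* were detected in 10 of 14 cells in Neg, 1 of 26 cells in AA and 15 of 44 in AA+Ab. These are 71.4% (41.9 to 91.6), 3.85% (0.0973 to 19.6) and 34.1% (20.5 to 49.9), and the interval of AA lay below that of Neg, whereas its upper end and the lower end of AA+Ab nearly met. In keratin-rich barcodes, which should lack the programme and were deeper (medians of 12381, 11035 and 10912 UMIs), the share was 1.5%, 0.826% and 1.35%. When each cell was thinned to 1000 UMIs, 28.6% (8.39 to 58.1), 3.85% (0.0973 to 19.6) and 9.09% of the cells met the criterion, and the intervals of Neg and AA then overlapped. Among CD8 T cells the same criterion was met by 5 of 11, 7 of 182 and 15 of 57 cells, so a lower share in AA than in Neg was not particular to CD4 T cells.

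Summed over the 14 genes of this list, the level was 7374, 2709 and 4418 CPM in Neg, AA and AA+Ab. The ratio of AA to Neg was 0.367 (0.326 to 0.413), and that of AA+Ab to AA was 1.63 (1.46 to 1.82). Of the 11 members with at least 20 UMIs over Neg and AA, 7 were at least 2-fold lower in AA and 0 at least 2-fold higher, where 7.74% of all 2416 genes were as much lower and 17.8% as much higher. The median log2 ratio was -1.17 for the members and 0.13 for all genes. Between AA+Ab and AA, 5 of 11 members were at least 2-fold higher and 0 lower, against 10.3% and 8.21% of all 3701 genes.

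Of the list members described here, *Lef1*, *Bach2* and *Satb1* had the widest ratios of AA to Neg. *Lef1*, a factor of naive and early T cells, had 143, 22 and 82 UMIs in 10, 5 and 16 cells of Neg, AA and AA+Ab, or 1278, 136 and 294 CPM, with ratios of 0.107 (0.0648 to 0.168) for AA to Neg and 2.15 (1.33 to 3.62) for AA+Ab to AA. *Bach2*, a repressor that holds T cells back from effector fates, had 156, 36 and 260 UMIs in 13, 9 and 26 cells. The AA level of *Bach2* was 0.16 (0.108 to 0.231) times that of Neg. In AA+Ab, 153 of the *Bach2* UMIs came from 1 cell of 12931 UMIs. *Satb1*, a chromatin organizer of T cells, had 98, 30 and 90 UMIs, and its AA level was 0.212 (0.136 to 0.322) times that of Neg. Each of the 3 was lower in AA than in Neg. In the Neg barcode scored as a doublet *Lef1* had 71 UMIs and *Bach2* 61. Without the barcodes scored as doublets the AA to Neg ratios were 0.156 for *Lef1*, 0.194 for *Bach2* and 0.136 for *Satb1*.

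Homing receptors of the list had smaller counts. *Ccr7*, which guides cells to lymph vessels and nodes, had 16, 11 and 63 UMIs, with a ratio of 0.477 (0.200 to 1.09) for AA to Neg, whose interval includes 1, and 3.31 (1.73 to 6.97) for AA+Ab to AA. *S1pr1*, the receptor for exit from tissue, had 28, 18 and 26 UMIs and was 0.446 (0.232 to 0.835) times the Neg level in AA and 0.835 (0.44 to 1.62) times the AA level in AA+Ab. *Il7r*, the IL-7 receptor chain that sustains resting T cells, was found in 14, 19 and 42 cells at 894, 601 and 914 CPM. Of the genes named here, *Ccr7*, *S1pr1* and *Il7r* were present in under 1% of keratin-rich barcodes, whereas *Bach2* and *Satb1* were present in 33.2% to 39% and 45.6% to 54% of them. If the keratinocyte RNA in CD4 barcodes had the composition of keratin-rich barcodes, it would bring at most 12.4 CPM of *Bach2* and 14.6 CPM of *Satb1* in any library.

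Type 2 helper genes were carried by a large share of the cells in all 3 libraries. *Gata3*, the factor that directs the type 2 programme, was detected in 6 of 14 cells in Neg, 20 of 26 cells in AA and 26 of 44 in AA+Ab, which are 42.9% (17.7 to 71.1), 76.9% (56.4 to 91) and 59.1% (43.2 to 73.7). Its level was 268, 619.9 and 473 CPM, with ratios of 2.31 (1.52 to 3.6) for AA to Neg and 0.763 (0.584 to 0.999) for AA+Ab to AA. Keratinocytes also express *Gata3*, which had a UMI in 82.6% to 87.7% of keratin-rich barcodes, and their RNA, taken as above, would bring 47.1, 17.8 and 61.5 CPM. *Il1rl1* (ST2), the receptor for IL-33, was rare in keratin-rich barcodes (0.0527% to 0.25% of them). It was found in 5, 13 and 22 CD4 T cells at 206, 223 and 244 CPM, and the AA level was 1.09 (0.626 to 1.92) times that of Neg. Cells with both *Gata3* and *Il1rl1* were 4 of 14 cells in Neg, 13 of 26 cells in AA and 16 of 44 in AA+Ab, with shares of 28.6% (8.39 to 58.1), 50% (29.9 to 70.1) and 36.4% (22.4 to 52.2) whose intervals overlap.

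Cytokine mRNA of this programme was sparse. A UMI of *Il4*, *Il5* or *Il13* was found in 2 of 14 cells in Neg, 6 of 26 cells in AA and 9 of 44 in AA+Ab, and all 17 of these cells also held *Gata3*. The share of keratin-rich barcodes with one was 0.187%, 0.141% and 0.0212%. *Il5*, which drives eosinophils, accounted for 1, 11 and 11 UMIs in 1, 5 and 7 cells, and *Il13* for 6, 1 and 0. *Il4* had 1, 8 and 3 UMIs, and all 8 of the AA UMIs came from 1 cell, the deepest AA barcode. The 14 genes of the list summed to 795, 1519 and 1096 CPM, with a ratio of 1.91 (1.49 to 2.46) for AA to Neg and 0.722 (0.608 to 0.857) for AA+Ab to AA. *Maf*, a factor of *Il4* transcription, was 2.45 (1.41 to 4.48) times the Neg level in AA and 0.405 (0.266 to 0.61) times the AA level in AA+Ab.

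**Figure D2:**
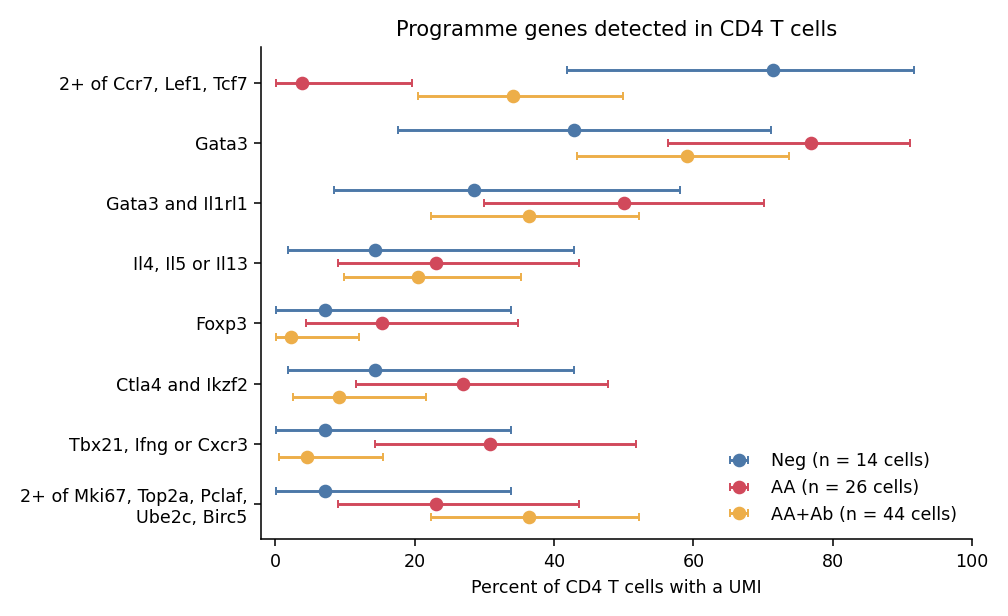
Percent of CD4 T cells with a UMI of the named gene or combination in the Neg (14 cells), AA (26 cells) and AA+Ab (44 cells) libraries, with exact 95% intervals of counting error. At least 2 of *Ccr7*, *Lef1* and *Tcf7* were found in 10, 1 and 15 cells, and *Gata3* in 6, 20 and 26.

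The summed level of regulatory genes was highest in AA, whereas the defining gene was found in few cells. *Foxp3*, the defining factor of Treg cells, was detected in 1 of 14 cells in Neg, 4 of 26 cells in AA and 1 of 44 in AA+Ab, which are 7.14% (0.181 to 33.9), 15.4% (4.36 to 34.9) and 2.27% (0.0575 to 12), and the intervals overlap. All 6 cells also held *Ctla4*, an inhibitory receptor, and *Ikzf2* (Helios), and 4 of them held *Gata3*. In keratin-rich barcodes *Foxp3* was found in 0.0527% to 0.127%. The list of 19 Treg genes summed to 1394, 4953 and 1870.2 CPM, and the ratio was 3.55 (2.99 to 4.24) for AA to Neg and 0.378 (0.338 to 0.422) for AA+Ab to AA. Weighting each cell equally gave 2.19 and 0.568, and leaving out the barcodes scored as doublets gave 2.67 (2.22 to 3.23) and 0.432 (0.383 to 0.487). Of 9 members with at least 20 UMIs, 8 were at least 2-fold higher in AA than in Neg, against 17.8% of all genes, and of 11 members 8 were at least 2-fold lower in AA+Ab than in AA, against 8.21%.

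*Ctla4* had 35, 175 and 84 UMIs in 6, 9 and 11 cells of Neg, AA and AA+Ab, with ratios of 3.47 (2.4 to 5.14) and 0.277 (0.211 to 0.362) for AA to Neg and AA+Ab to AA. *Ikzf2*, a factor of stable Treg cells, had 6, 157 and 80 UMIs in 2, 11 and 5 cells, and the ratios were 18.1 (8.15 to 50.2) and 0.295 (0.222 to 0.388), the first of which was 11.2 without the barcodes scored as doublets. Of the *Ikzf2* cells in AA, 7 had no UMI of *Foxp3*. Keratin-rich barcodes held *Ikzf2* in 78.5% to 82.1%, and their RNA would bring 36, 15.9 and 51.8 CPM against the 53.6, 973 and 287 CPM measured. The costimulatory receptors *Tnfrsf4* (OX40), with 14, 57 and 20 UMIs, and *Tnfrsf18* (GITR), with 18, 57 and 43, were 2.82 (1.55 to 5.49) and 2.2 (1.27 to 3.97) times the Neg level in AA. *Areg* (amphiregulin), an epidermal growth factor that Treg and type 2 cells release in repair, had 4, 76 and 37 UMIs, in 1 cell of Neg and in 9 of AA, and 33 of the AA UMIs came from the deepest AA barcode, which also held most *Gzmc*. *Il2ra* (CD25) was found in 5, 15 and 21 cells, *Klrg1* was the member that was higher in AA+Ab than in AA, at 2.79 (1.14 to 8.23) times, and *Il10* was at 0 in every library.

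At least 1 gene of the type 1 list was found in 11 of 14, 24 of 26 and 38 of 44 cells, whereas its defining genes were in fewer. *Tbx21* (T-bet), *Ifng* or *Cxcr3*, the type 1 factor, cytokine and homing receptor, was found in 1 of 14 cells in Neg, 8 of 26 cells in AA and 2 of 44 in AA+Ab, or 7.14% (0.181 to 33.9), 30.8% (14.3 to 51.8) and 4.55% (0.555 to 15.5). The same genes marked 54.5%, 90.1% and 82.5% of CD8 T cells. *Ifng* itself had 3, 5 and 0 UMIs in 1, 2 and 0 CD4 T cells, and 0 of 44 cells allows a share of up to 6.82% with a UMI in AA+Ab (a floor of 3 of 44). The 1 Neg cell with any of these 3 genes was the barcode scored as a doublet, which held all 3 *Ifng* UMIs. The deepest AA barcode held 4 of the 5 *Ifng* UMIs and 11 of the 14 *Tbx21* UMIs of AA. *Tnf* had 2, 30 and 33 UMIs and was 10.4 (2.64 to 89.8) times the Neg level in AA. *Csf2* (GM-CSF), a cytokine of tissue T cells, had 0, 24 and 49 UMIs in 0, 6 and 8 cells, so that against a floor of 3 UMIs in Neg it was at least 5.55-fold higher in AA. The type 1 list summed to 965, 1568 and 792 CPM, with ratios of 1.62 (1.29 to 2.05) and 0.505 (0.42 to 0.607) for AA to Neg and AA+Ab to AA.

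The cytokines that define type 17 and follicular helper cells were nearly absent, whereas other genes of these lists were present. *Il17a* and *Il17f* were at 0 in every library, *Il22* had 3 UMIs in 1 AA+Ab cell, and *Il23r* 5 UMIs in 2 AA+Ab cells. *Rora*, which is shared by type 2 and type 17 cells, was found in 9, 25 and 34 cells at 635, 1215 and 1179 CPM, or 71, 196 and 329 of the 114, 301 and 443 UMIs of the type 17 list. *Cxcr5* and *Il21*, which define follicular helper cells, were at 0, and *Pdcd1* (PD-1) had 0, 13 and 2 UMIs, 11 of them in 1 AA cell. The lists summed to 1019, 1866 and 1587 CPM for type 17, with a ratio of 1.83 (1.47 to 2.29) for AA to Neg, and 241, 453 and 301 CPM for follicular helper genes.

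Cytotoxic genes had their highest level in AA, and at least 1 of them was found in 6 of 14, 16 of 26 and 23 of 44 cells. The list of 18 genes summed to 626, 3069 and 429.9 CPM, with ratios of 4.9 (3.81 to 6.39) for AA to Neg and 0.14 (0.114 to 0.171) for AA+Ab to AA. The first was 8.23 (5.69 to 12.3) without the barcodes scored as doublets. The deepest AA barcode, which was not scored as a doublet, held 243 of the 495 AA UMIs, 156 of them *Gzmc*. Weighting each cell equally gave ratios of 3.33 and 0.185. *Xcl1*, a chemokine for cross-presenting dendritic cells, had 0, 85 and 0 UMIs in 2 AA cells. *Ccl5*, a chemokine of effector T cells, had 24, 69 and 10 UMIs in 2, 6 and 2 cells (20 of the 24 in the Neg barcode scored as a doublet), and *Nkg7*, a granule protein, had 3, 34 and 9 in 1, 8 and 2. Granzyme B (*Gzmb*) had 6, 29 and 5 UMIs in 2, 5 and 3 cells, and its AA+Ab level was 0.0996 (0.0301 to 0.26) times that of AA. Of 8 members with at least 20 UMIs, 7 were at least 2-fold lower in AA+Ab than in AA and 0 higher, against 8.21% and 10.3% of all genes.

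Interferon-response genes were higher in CD4 T cells of AA than in those of the other libraries. The 27 genes summed to 1126, 3539.7 and 1559 CPM in Neg, AA and AA+Ab. The ratio of AA to Neg was 3.14 (2.59 to 3.84), that of AA+Ab to AA 0.44 (0.388 to 0.50) and that of AA+Ab to Neg 1.38 (1.13 to 1.7). Without the barcodes scored as doublets these were 1.99 (1.62 to 2.45), 0.604 (0.527 to 0.691) and 1.2 (0.978 to 1.49). The barcode scored as a doublet in AA held 9971 CPM of the list and that of Neg 173, and the AA barcode with most *Cd74*, a class II chaperone of antigen-presenting cells, held 5231. The part of that barcode in the ratios was not tested. The median cell held 1191, 2347 and 1331 CPM. The 5 members with at least 20 UMIs over Neg and AA were all at least 2-fold higher in AA, against 17.8% of all genes, with a median log2 ratio of 2.19 against 0.13 over all genes. Without the doublets *Irf1* was at 9.71 times the Neg level, *Psmb8* at 2.02 and *Ifi27l2a* at 1.53, so that *Ifi27l2a* was no longer 2-fold apart. Of 8 members with enough UMIs, 6 were at least 2-fold lower in AA+Ab than in AA, against 8.21% of all genes.

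*Irf1*, an early interferon-induced transcription factor, had 4, 40 and 22 UMIs and ratios of 6.94 (2.51 to 26.7) and 0.318 (0.18 to 0.548) for AA to Neg and AA+Ab to AA, and 17 of its 40 AA UMIs came from 1 cell. The immunoproteasome subunits *Psmb8* and *Psmb9*, which trim peptides for presentation, had 25, 114 and 74 and 3, 32 and 26 UMIs, and AA to Neg ratios of 3.16 (2.04 to 5.09) and 7.4 (2.31 to 37.8). *Ifi27l2a*, the most abundant member, was detected in 8, 23 and 31 cells at 509, 1382 and 512 CPM. In the CD8 T cells of the same libraries *Ifi27l2a* was at 407, 233 and 137 CPM.

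Promoters of these genes were read from RefSeq (GRCm38.p6, the build of the files) to show the sequence elements through which interferon signals are known to act. The 250 bases before the start of each gene were searched on both strands for the gamma-activated sequence GAS (TTCNNNGAA) and the interferon-stimulated response element ISRE (GAAA and GAAA with 2 bases between them). Of the 27 members 21 had a promoter in the table. GAS was found in 7 of them and ISRE in 11, where 8.13% and 3.46% of all 27025 genes held one. At least 1 of the 2 letter patterns, which can overlap, stood in 14 members and in 11.1% of all genes. The 3 windows below are shown because *Irf1* and *Psmb8* were among the members higher in AA and *Gbp7* (3, 12 and 9 UMIs) held both elements, and the capitals mark a GAS in the first 2 and an ISRE in the last. Each lies upstream of the gene's start, at chr11:53769899-53769957, plus strand, chr17:34198073-34198131, plus strand, and chr3:142530258-142530317, plus strand.
Irf1: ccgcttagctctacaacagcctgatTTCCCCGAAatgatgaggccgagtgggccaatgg
Psmb8: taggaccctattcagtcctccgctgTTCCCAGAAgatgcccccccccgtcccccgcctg
Gbp7: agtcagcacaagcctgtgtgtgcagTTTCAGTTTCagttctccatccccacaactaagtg
A match is a description of the letters in these windows, and binding was not measured.

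**Figure D3:**
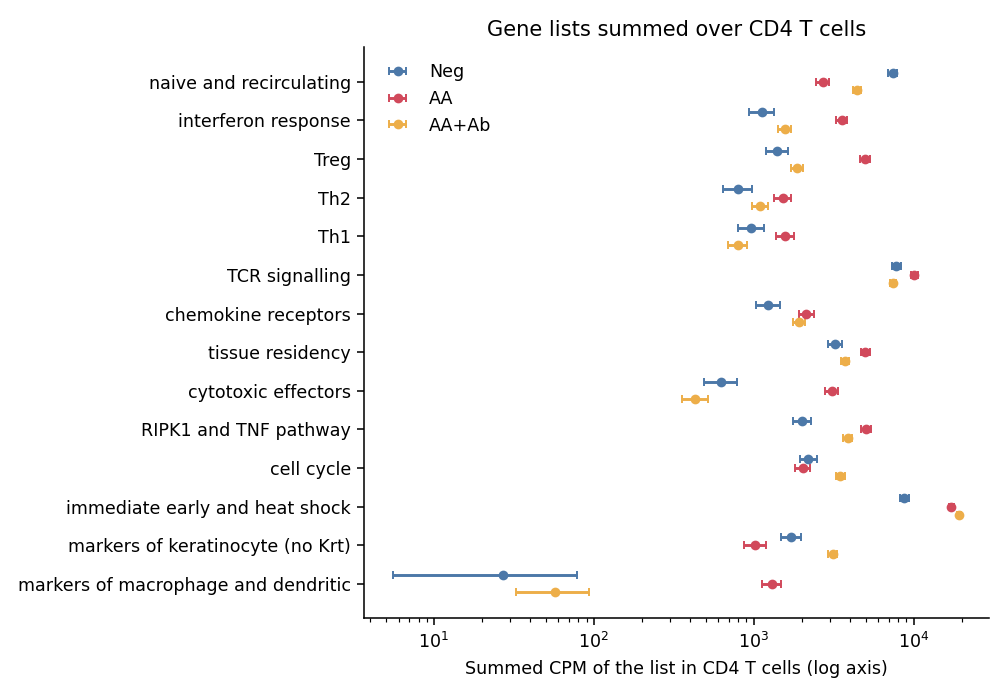
Summed CPM of each gene list over the CD4 T cells of the Neg, AA and AA+Ab libraries (log axis), with exact Poisson 95% intervals; keratinocyte markers are without *Krt* genes. The naive list was at 7374, 2709 and 4418 CPM, and the interferon list at 1126, 3539.7 and 1559.

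**Figure D4:**
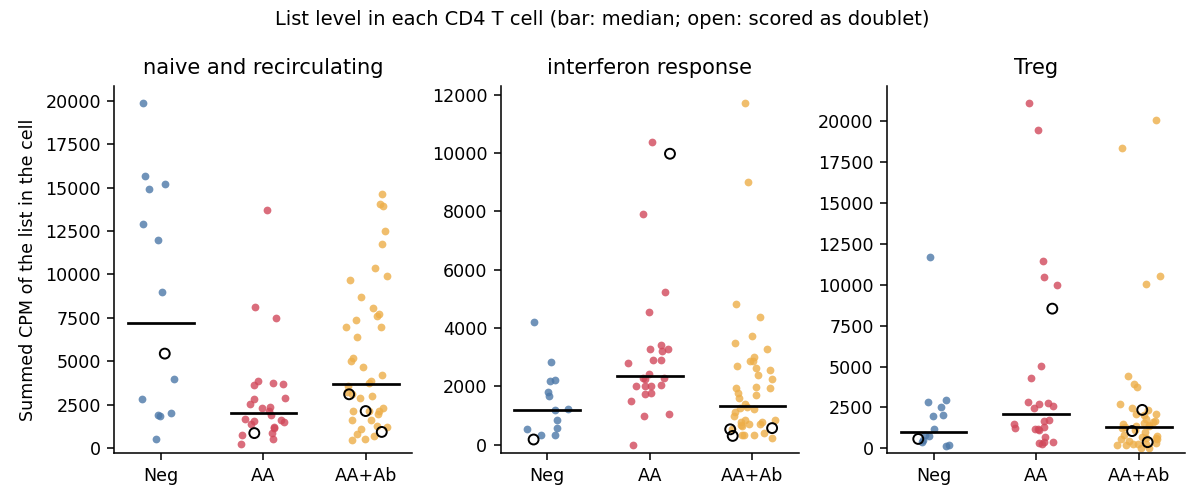
Level of 3 gene lists in each CD4 T cell, in CPM of that cell, with the median as a bar and barcodes scored as doublets as open circles. The median cell of Neg, AA and AA+Ab held 7223, 2012 and 3684 CPM of naive genes, 1191, 2347 and 1331 of interferon genes and 1019.8, 2091 and 1332 of Treg genes, and the highest Treg value was 21085 CPM, in a cell of AA.

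The chemokine receptors included *Ccr2*, which brings cells to inflamed tissue along CCL2. It had 15, 96 and 125 UMIs in 4, 19 and 27 cells, and the AA level was 4.44 (2.56 to 8.24) times that of Neg. Of the 96 *Ccr2* UMIs in AA, 16 came from the barcode with most *Cd74*. *Cxcr6*, a receptor of skin-resident T cells, had 29, 91 and 98 UMIs in 5, 17 and 25 cells, with ratios of 2.18 (1.42 to 3.43) and 0.622 (0.463 to 0.837), the first of which turned below 1 when at least 2 *Cd4* UMIs were required (log2 ratio -0.092). *Cxcr4*, the receptor of CXCL12, had 11, 16 and 55 UMIs in 6, 10 and 25 cells of Neg, AA and AA+Ab, or 98.3, 99.2 and 197 CPM. The AA level of *Cxcr4* was 1.01 (0.44 to 2.4) times that of Neg, and the AA+Ab level was 1.99 (1.12 to 3.71) times that of AA, or 3.11 times without the barcodes scored as doublets. *Ackr3*, the other CXCL12 receptor, had 0, 1 and 9 UMIs, and *Cxcl12* itself had 1, 0 and 1. *Cxcr4* was found in 0.65% to 0.873% of keratin-rich barcodes, whereas *Ackr3* was found in 43.1% to 49.2% of them. Of the tissue residency list, 6 of 11 members were at least 2-fold higher in AA than in Neg, against 17.8% of all genes, among them *Nr4a1*, a target of antigen receptor signalling, with 19, 109 and 98 UMIs, and *Cd69*, which retains cells in tissue, with 15, 55 and 147. Their AA to Neg ratios were 3.98 (2.43 to 6.86) and 2.54 (1.42 to 4.85).

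Antigen receptor and cytokine signalling genes had list ratios nearer to 1. The 18 receptor signalling genes summed to 7803, 10098 and 7395 CPM, with 3 of 17 members at least 2-fold higher and 0 lower in AA than in Neg, against 17.8% and 7.74% of all genes, so that the share of higher members was near the background. The members that were higher included *Cd40lg*, the ligand by which helper cells license dendritic and B cells, with 24, 79 and 78 UMIs. The list of common gamma chain receptors and JAK-STAT genes gave ratios of 0.949 (0.85 to 1.06) for AA to Neg and 0.895 (0.816 to 0.981) for AA+Ab to AA. Without the barcodes scored as doublets the ratios of this list were 0.747 (0.665 to 0.841) and 1.08 (0.984 to 1.19). The first interval then lay below 1, and the second ratio turned above 1 with an interval that includes 1. *Jak1* was found in 14, 23 and 35 cells at 527, 477 and 487 CPM and *Jak3* had 4, 2 and 1 UMIs. *Stat5b*, a transducer of IL-2 and IL-7 signals, was at 0.312 (0.219 to 0.44) times the Neg level in AA. Of 14 members 4 were at least 2-fold higher in AA, among them *Il2ra* at 2.73 (1.56 to 5.07) times, and 1, *Stat5b*, was lower, against 17.8% and 7.74% of all genes. The 14 checkpoint genes summed to 1224, 2176 and 942 CPM, and *Ctla4* gave 175 of the 351 UMIs in AA.

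*Ripk1*, the kinase that relays TNF receptor signals to survival or cell death, had 5, 7 and 8 UMIs in 4, 5 and 7 CD4 T cells, or 44.7, 43.4 and 28.7 CPM. Of the 7 *Ripk1* UMIs in AA, 3 came from the barcode with most *Cd74*, whose part in the level was not tested. The AA level was 0.971 (0.265 to 3.88) times that of Neg and the AA+Ab level 0.661 (0.209 to 2.14) times that of AA, so that a difference was not detectable at these counts. *Ripk3* had 0, 4 and 0 UMIs and *Mlkl* 0, 0 and 1, the kinase and the effector of necroptosis. *Ripk1* was also present in 29.2% to 38.1% of keratin-rich barcodes, whose RNA would bring at most 11.6 CPM. The pathway list as a whole summed to 2011, 5058 and 3862 CPM, and 6 of 9 members were at least 2-fold higher in AA than in Neg, against 17.8% of all genes. These were led by the feedback inhibitor *Nfkbia*, with 37, 257 and 418 UMIs, and by *Traf1*, with 13, 78 and 65, both targets of NF-kB.

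Immediate early and heat shock genes, which also respond to tissue dissociation, were higher in AA and AA+Ab than in Neg. They summed to 8741, 17184 and 19168 CPM, with ratios of 1.97 (1.83 to 2.12) for AA to Neg and 2.19 (2.05 to 2.35) for AA+Ab to Neg, and 11 of 20 members were at least 2-fold higher in AA, against 17.8% of all genes. *Fos* had 36, 189 and 536 UMIs, and its AA to Neg ratio turned below 1 when barcodes with up to 2% *Krt* UMIs were kept. *Hspa1a* had 22, 104 and 124 UMIs. The part of handling in these values was not tested. Cell cycle genes summed to 2199, 2027 and 3468 CPM, and without the barcodes scored as doublets to 752, 968 and 1791 CPM. The AA to Neg ratio was then 1.29 (0.943 to 1.78) in place of 0.922 (0.779 to 1.09), so that its direction turned, and both intervals include 1. At least 2 of *Mki67*, *Top2a*, *Pclaf*, *Ube2c* and *Birc5* were found in 1 of 14 cells in Neg, 6 of 26 cells in AA and 16 of 44 in AA+Ab. In keratin-rich barcodes the share was 16.4%, 10.3% and 18%. The Neg barcode of 34736 UMIs held 16 of the 17 *Mki67* UMIs and 75 of the 83 *Stmn1* UMIs of that library. In AA+Ab, 1 barcode held 371 of the 968 UMIs of the cell cycle list. The AA+Ab barcodes of 12931, 14200 and 22975 UMIs held 9, 26 and 30 of the 73 *Mki67* UMIs. In cells under 12000 UMIs the log2 ratio of AA+Ab to AA turned negative for *Mki67* (-0.53), *Top2a* (-1.12) and *Stmn1* (-0.31).

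Beyond the lists, genes were ranked by the bound of the ratio's interval nearest to 1. The 10 genes ranked highest in AA over Neg were *Gadd45b*, *Ikzf2*, *Lsamp*, *Zfp36*, *Nfkbid*, *Areg*, *Csgalnact1*, *Nr4a3*, *Csf2* and *Ccl4*. *Gadd45b*, a stress and NF-kB target, had 6, 160 and 211 UMIs in 2, 18 and 23 cells and a ratio of 18.5 (8.31 to 51.2). *Nfkbid*, an atypical NF-kB regulator, had 4, 83 and 84 UMIs and a ratio of 14.4 (5.41 to 54.1), and *Zfp36*, which destabilizes cytokine mRNA, had 14, 191 and 398 and 9.46 (5.5 to 17.6). Keratinocyte RNA, taken as above, would bring 259, 123 and 467 CPM of *Zfp36* against the 125, 1184 and 1426 CPM measured. In Neg the value expected this way exceeds the level measured, so the assumption does not hold there for *Zfp36*. Of *Lsamp*, 67 of the 90 AA UMIs came from 1 cell. Without the barcodes scored as doublets 6 of the 10 genes remained among the first 10.

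The 10 genes ranked lowest in AA against Neg were *Lef1*, *Bach2*, *Mt1*, *Satb1*, *Adk*, *Cblb*, *Thada*, *Cux1*, *Arap2* and *Slc49a4*. *Cblb*, a ubiquitin ligase that sets the threshold of T cell activation, had 175, 65 and 113 UMIs and a ratio of 0.258 (0.191 to 0.344). *Adk*, adenosine kinase, had 68, 20 and 53 UMIs in 11, 9 and 16 cells. *Mt1* and *Cux1* rested on the Neg barcode of 34736 UMIs, scored as a doublet, which held 143 of 175 and 71 of 77 UMIs, and without it the ratios were 0.831 and 2.3. Of the 10 genes 7 remained without the doublets.

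Between AA+Ab and AA, the genes ranked lowest were *Ccl4*, *Dusp4*, *Ccl5*, *Ctsw*, *Nr4a3*, *Gzmb*, *Mmd*, *Nkg7*, *Tex14* and *AW112010*, of which 7 remained without the doublets. *Ccl4*, an effector chemokine, had 0, 24 and 0 UMIs, and against a floor of 3 UMIs it was at least 13.8-fold lower in AA+Ab. *Nr4a3*, a target of antigen receptor signalling, had 5, 74 and 18 UMIs in 3, 12 and 10 cells, with a ratio of 0.141 (0.079 to 0.238), and *AW112010*, a transcript raised by interferon, had 32, 156 and 67 UMIs in 11, 23 and 29 cells, with 0.248 (0.184 to 0.333). The 10 ranked highest, *Timp3*, *Slc39a10*, *Fhod3*, *Sox5*, *Robo1*, *Efna5*, *Gja1*, *Nfib*, *Tenm2* and *Arhgap24*, came from 5 to 10 cells each. In AA+Ab, 68 of the 140 *Robo1* UMIs and 32 of the 88 *Timp3* UMIs came from single cells, *Nfib* had a UMI in 94.9% to 96.7% of keratin-rich barcodes, and 4 of the 10 remained without the doublets. Between AA+Ab and Neg, 13.1% of 3356 genes were at least 2-fold higher and 5.33% at least 2-fold lower. *Zfp36*, *Gadd45b*, *Csgalnact1*, *Csf2*, *Lsamp*, *Fos*, *Phlda1*, *Bhlhe40*, *Top2a* and *Nfkbia* ranked highest there, and *Eea1*, *Lef1*, *Cblb*, *Pou6f1*, *Gramd3*, *Stat5b*, *Thada*, *Raet1e*, *Adk* and *Txk* lowest. Without the doublets 6 of the highest and 8 of the lowest remained, and *Top2a* fell from 76 to 27 UMIs in AA+Ab and out of the first 10.

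CD4 and CD8 T cells occur in each library, so their difference could be tested with the 3 libraries as replicates. The libraries are the 3 groups of the study, so the p-values refer to the difference between cell types over these groups. The test takes the spread of a gene in part from all genes tested. A p-value therefore does not measure the variation of that gene over the 3 libraries alone. Of 3659 genes tested on summed UMIs by edgeR's quasi-likelihood test with Benjamini-Hochberg adjustment and the library as a block, 44 were higher in CD4 T cells (1.20%) and 73 lower (2.0%) at an adjusted p under 0.05. The receptor *Il1rl1* was at 206, 223 and 244 CPM in CD4 T cells of Neg, AA and AA+Ab and at 0, 32 and 0 CPM in CD8 T cells, a log2 difference of 3.81 (SE 0.55, edgeR adjusted p = 7.02e-04), which did not pass by DESeq2 (adjusted p = 0.116). *Ccr2* was higher in CD4 T cells of all 3 libraries, by 2.36 (SE 0.34, edgeR adjusted p = 7.91e-04) on the log2 scale. *Gata3* differed by 2.34 (SE 0.38, edgeR adjusted p = 0.00186) and *Maf* by 2.81 (SE 0.38, edgeR adjusted p = 4.60e-04), so that 3 of the 4 type 2 genes tested were higher in CD4 T cells. *Tnfrsf4* was at 125, 353 and 71.7 CPM against 0, 22.9 and 12.5, a log2 difference of 3.68 (SE 0.45, edgeR adjusted p = 2.03e-04). With *Ikzf2*, which did not pass without the library block (edgeR adjusted p = 0.303), and *Tnfrsf18* it made up the 3 of 8 Treg genes that were higher. The other genes with the smallest p were *Tmem64*, *Mmp16*, *Plcl1*, *Ltb4r1*, a leukotriene B4 receptor, and *Plcb4*. *Mmp16*, a matrix protease, was at 134, 911 and 552 CPM in CD4 T cells and 0, 90.3 and 9.36 in CD8 T cells.

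Effector genes of CD8 T cells were lower in CD4 T cells. Of 12 cytotoxic genes 9 were lower, against 2.0% of all genes tested, with a median log2 difference of -3.54 against 0.02 over all genes. *Ccl5* was at 215, 428 and 35.8 CPM in CD4 T cells and 4123, 4662 and 3806 in CD8 T cells, with a log2 difference of -4.61 (SE 0.47, edgeR adjusted p = 4.94e-05). *Klrk1* (NKG2D), a receptor for stress ligands, differed by -4.67 (SE 0.45, edgeR adjusted p = 3.84e-05). *Ifng* differed by -4.96 (SE 0.60, edgeR adjusted p = 1.88e-04), *Klrd1* by -3.85 (SE 0.44, edgeR adjusted p = 9.82e-05) and *Nkg7* by -3.85 (SE 0.49, edgeR adjusted p = 3.10e-04), all lower in CD4 T cells of 3 of 3 libraries. The other genes with the smallest p were *Jaml*, *Atp8b4*, *Gm44174*, *Klrc2* and *Nr4a2*. Of the residency list 3 of 13 were lower, *Itgae* (CD103), *Itga1* and *Nr4a2*, against 2.0% of all genes tested. The 12 naive genes tested had edgeR adjusted p-values of 0.12 or more, and 3 of them, *S1pr1*, *Bach2* and *Il7r*, had an unadjusted p under 0.05. *Lef1* differed by 0.66 (SE 0.31, edgeR adjusted p = 0.428), and *Ripk1* was at 44.7, 43.4 and 28.7 CPM against 53.1, 49.1 and 40.6 CPM in CD8 T cells. Without Neg the counts were 113 genes higher and 137 lower, without AA+Ab 19 and 29, and without the library block 16 and 32.

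**Figure D5:**
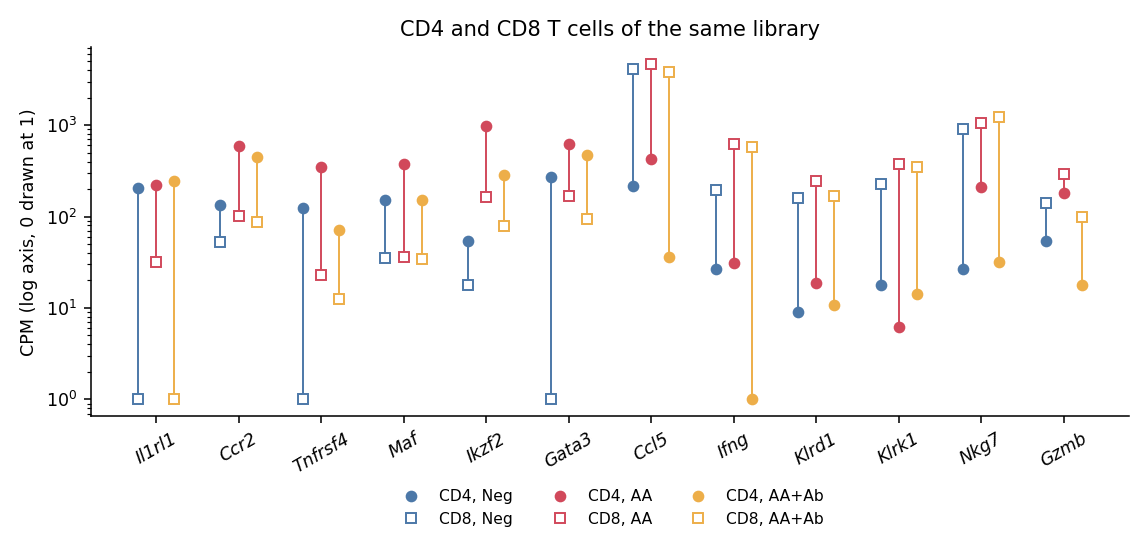
CPM (log axis, 0 drawn at 1) of 12 genes in CD4 (filled circles) and CD8 T cells (open squares) of the same library, joined by a line. *Il1rl1*, *Ccr2*, *Tnfrsf4*, *Maf*, *Ikzf2* and *Gata3* were higher in CD4 T cells of all 3 libraries, and the other 6 were lower in all 3, of which *Gzmb* did not pass the test (edgeR adjusted p = 0.0897).

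Against gamma-delta T cells, 505 of 6361 genes were higher in CD4 T cells (7.94%) and 601 lower (9.45%) by the same test. Of 12 naive genes 8 were higher. *Ccr7* was at 143, 68.2 and 226 CPM in CD4 T cells and 4.94, 5.18 and 8.17 in gamma-delta T cells, a log2 difference of 4.78 (SE 0.39, edgeR adjusted p = 5.29e-05). *Lef1*, at 1278, 136 and 294 against 69.1, 179.6 and 167 CPM, did not pass (edgeR adjusted p = 0.152), and was higher in CD4 T cells of Neg and AA+Ab and lower in those of AA. *Cd28* and *Icos*, the costimulatory receptors, differed by 7.30 (SE 0.48, edgeR adjusted p = 2.50e-05) and 4.33 (SE 0.28, edgeR adjusted p = 2.50e-05), and *Ctla4* by 6.76 (SE 0.50, edgeR adjusted p = 3.74e-05). *Cxcr4* was higher as well, by 2.24 (SE 0.39, edgeR adjusted p = 0.00289). *Inpp4b*, *Gimap3*, *Ms4a6b*, *Arhgap15*, *Raet1e*, *Ptpn18* and *Gmfg* were the other genes with the smallest p among those higher in CD4 T cells. *Kcnma1*, a potassium channel, was at 8.94, 0 and 3.58 CPM against 1505, 1727 and 1437, and with *Cd7*, *Lhfpl3*, *Ctla2b*, *Rcc1l*, *Ctnnd2*, *Fermt2*, *Ctla2a*, *Atp8a2* and *Cd244a* it had the smallest p among those lower.

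The variable segments of the T cell receptor, which would show whether cells belong to shared clones, were nearly absent. *Trbv* genes had 4, 4 and 3 UMIs and *Trav* genes 1, 8 and 10 in Neg, AA and AA+Ab, out of 35 and 128 genes listed. *Trbv19*, with 1, 2 and 1 UMIs, led the *Trbv* genes, and no *Trav* gene had more than 2 UMIs in a library. No statement on clones can be made from these counts.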

How the data were processed

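Single-cell libraries were made from pooled dorsal skin, and the matrices the authors deposited hold unnormalized UMI counts, obtained with Cell Ranger 7.2.0 on mm10 (per the submitters' processing notes, which also name FastQC 0.11.7). Groups were taken from the labels. The rule for CD4 T cells and all gene lists were chosen with earlier results of these data known. UMIs were summed per library and cell type. Shares have exact Clopper-Pearson intervals, levels exact Poisson intervals and ratios of CPM exact conditional intervals, which cover counting error only. Genes were counted as 2-fold different with at least 20 UMIs over both libraries. The text names list members its sentences need, the 10 highest and lowest genes per pair of libraries by the ratio bound nearest to 1 (found in at least 5 cells of the higher library, without mitochondrial, ribosomal, keratin, hemoglobin, Gm and Rik genes), the 10 smallest p per direction and test, *Ripk1*, *Cxcr4*, *Ackr3*, *Cxcl12*, and leading V segments. Other single genes, such as those with most UMIs in 1 cell, were chosen after their values were seen.

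CD4 T cells were compared with CD8 and gamma-delta T cells with edgeR 4.0.16 (R 4.3.3; quasi-likelihood test, TMM, filterByExpr, library block, Benjamini-Hochberg threshold 0.05), checked on simulated counts. Doublets were scored per library against simulated pairs at 0.8% per 1000 barcodes and kept in the main values. DESeq2 1.42.0, numpy 2.4.6, pandas 2.3.3, scipy 1.17.1, scikit-learn 1.9.0 and matplotlib 3.10.9 were also used. Alternatives were other limits on mitochondrial, keratin, gene and *Cd4* UMIs, thinning to 1000 UMIs, equal weight per cell, leaving out doublets or a library, other scalings and filters, and, added after seeing the data, cells under 12000 UMIs. A few genes are not reported here, and the criterion for naive cells used the 3 genes named, a choice made after seeing the data; under a wider criterion the intervals of AA and AA+Ab overlapped slightly.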

Additional observations from a re-analysis of the deposited data

Results flagged for a closer look

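In AA, 9 barcodes held T cell genes with UMIs of both *Cd4* and *Cd8a* or *Cd8b1*, which is 0.0863% (0.0395 to 0.164, exact Clopper-Pearson interval) of the kept barcodes. None was found in Neg, where 0 of 6582 barcodes allows a share of up to 0.0456% (a floor of 3 barcodes), or in AA+Ab, where 0 of 9832 allows up to 0.0305%. These barcodes went into neither the CD4 nor the CD8 T cells. Their median was 7475 UMIs, above the 5183 of CD4 T cells in AA, 1 of the 9 was scored as a doublet, and *Cd4* had 1 UMI in 5 of them.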

How the results depend on the processing

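Of 978 levels of single genes recomputed under the alternatives for pairs of libraries, 858 moved by less than their counting interval and 107 moved further. The other 13 changed sign from a main value whose interval excluded an equal level. Sign changes of main values whose interval included an equal level are not among the 13. Without the barcodes scored as doublets, the log2 ratio of AA to Neg turned negative for *Il1rl1* (-0.32) and *Cxcr4* (-0.19) and positive for *Ripk1* (0.25). These were not counted. Of 439 values of single genes in the edgeR tests 436 kept their direction and side of the threshold. The cause of a change was not tested unless a setting's own construction shows it.

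With *Cd4* at 2 or more UMIs, which left 4, 10 and 14 cells, CD4 T cells were 0.0608%, 0.0958% and 0.142% of the barcodes and 26.7%, 5.21% and 19.7% of CD4 and CD8 T cells, and at least 2 of *Ccr7*, *Lef1* and *Tcf7* were found in 0 of the AA cells. On the log2 scale the naive list was then at -2.08 for AA against Neg and -1.40 for AA+Ab against Neg, the interferon list at -1.41 for AA+Ab against AA and 0.12 for AA+Ab against Neg, and the Treg list at -2.10 for AA+Ab against AA. The Treg list changed sign for AA+Ab against Neg, to -0.32, as did *Gata3*, to -0.37. *Cxcr6* changed sign for AA against Neg, to -0.092, and *Gadd45b* and *Nfkbid* for AA+Ab against AA, to 0.60 and 0.42. Genes at least 2-fold apart numbered 191 higher and 119 lower for AA against Neg, 154 higher for AA+Ab against AA and 226 higher for AA+Ab against Neg.

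For AA+Ab against Neg the naive list was at -0.88 with mitochondrial UMIs at most 5% and at -0.54 with *Krt* UMIs under 2%, where *Fos* for AA against Neg changed sign to -0.39. Without the barcodes scored as doublets, the interferon list was at 0.99 for AA against Neg and -0.73 for AA+Ab against AA, the Treg list at 1.42 and -1.21, *Mki67* for AA against Neg changed sign to 1.35, 108 genes were lower in AA than in Neg and 221 higher in AA+Ab than in AA. In cells under 12000 UMIs, a limit chosen after seeing the data, the shares were 0.503%, 0.426% and 0.736% of barcodes below it, the interferon list was at 1.25 and -0.79 and the Treg list at 1.51 and -1.11. There, *Mki67* and *Stmn1* changed sign for AA against Neg, to 2.27 and 1.94, and *Gadd45b*, *Ccr2*, *Mki67*, *Top2a* and *Stmn1* for AA+Ab against AA, to 0.26, 0.028, -0.53, -1.12 and -0.31. In those cells 116 genes were lower in AA than in Neg, and 143 and 271 were higher in AA+Ab than in AA and Neg. With each cell weighted equally the interferon list was at 1.17 and -0.67 and the Treg list at 1.13 and -0.82.

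Thinned to 1000 UMIs, at least 2 of *Ccr7*, *Lef1* and *Tcf7* were found in 28.6% of Neg and 9.09% of AA+Ab cells, and *Gata3* in 50% of AA and 25% of AA+Ab cells. With at least 10 UMIs over both libraries, 847 genes were higher and 516 lower for AA against Neg, 967 and 617 for AA+Ab against AA, and 1066 and 441 for AA+Ab against Neg. With at least 50 UMIs these were 154 and 40, 74 and 109, and 104 and 41.

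For CD4 against CD8 T cells, the genes higher and lower in CD4 T cells were 23 and 47 by DESeq2, 85 and 137 with no filter beyond 1 count, and 16 and 32 without the library block. Leaving out 1 library gave 19 to 113 higher and 29 to 137 lower, without the doublets 78 were higher, and in cells under 12000 UMIs 79. Against gamma-delta T cells 978 genes were lower with no filter, where more genes were tested. *Ikzf2* and *Mmp16* missed the threshold without the library block (edgeR adjusted p = 0.303 and 0.0516), and *Il1rl1* by DESeq2 (adjusted p = 0.116). TMM scaling moved log2 ratios between libraries by at most 0.07. No paired analysis between groups was possible because the labels carry no replicate numbers and each group is 1 library. The tests between cell types compared the classes within each library.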
